A study of Mus musculus with 22 samples.

Results

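The transcripts of 10 genes of de novo lipogenesis were followed in the livers of Cre and liver-*Flcn*-/- mice: *Acly*, *Acaca*, *Acacb*, *Fasn*, *Elovl6* and *Me1*, which encode enzymes, and *Srebf1*, *Mlxipl*, *Thrsp* and *Pnpla3*, which encode regulators or their well known targets. The genes were found by symbol among the 55573 rows of the count table. Each of the 10 had 1 row, and all 10 had a mean count of at least 10, as did 14062 genes in all. On the methionine- and choline-deficient (MCD) diet 9 of the 10 were lower than on chow in Cre livers and 8 in *Flcn* KO livers, where 28.2% and 22.5% of all tested genes were lower. In the fit of all libraries *Acacb* alone among them differed between the genotypes on MCD, where its mean level was 3.47-fold higher in *Flcn* KO livers. This call was lost among male mice alone, with sex read from the counts. That fit held 2 Cre mice on MCD, of which 1, mouse 3, had a library with many skeletal muscle transcripts. Depending on the fit, *Fasn*, *Elovl6* or *Mlxipl* passed as well.

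mRNA-seq of whole livers was available for 22 mice, with 6 Cre mice on chow, 5 Cre mice on MCD, 5 *Flcn* KO mice on chow and 6 *Flcn* KO mice on MCD. All were C57BL/6 mice of 3 months that had received their diet for 6 weeks from 6 weeks of age, and the chow held 10 kcal percent fat. Control (Cre) mice were Flcn WT/WT and carried 1 copy of Albumin-Cre, so both genotypes carried the recombinase. Knockout mice were Flcn f/f with Albumin-Cre, in which the albumin promoter drives Cre, mainly in hepatocytes, and exon 7 of *Flcn* is removed. Cells of the liver in which that promoter was never active keep the gene. The labels number the mice within a group and name no litter, cage or preparation batch. In RNA from whole tissue, fewer cells of a type and less RNA per cell cannot be told apart.

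De novo lipogenesis turns surplus carbohydrate into fatty acids. ATP citrate lyase (*Acly*) makes cytosolic acetyl-CoA, the acetyl-CoA carboxylases convert it to malonyl-CoA, fatty acid synthase (*Fasn*) builds palmitate, *Elovl6* extends it, and malic enzyme (*Me1*) supplies NADPH. *Acaca* encodes the cytosolic carboxylase that feeds synthesis, whereas the product of *Acacb* sits at the mitochondrial outer membrane, where its malonyl-CoA restrains the entry of fatty acids into mitochondria. In liver the pathway is driven by insulin through SREBP-1c (from *Srebf1*) and by sugar metabolites through ChREBP (from *Mlxipl*). *Thrsp* (Spot 14) and *Pnpla3*, which encodes a lipid droplet protein, are induced by these factors on feeding.

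Promoter sequences were read from RefSeq (GRCm38.p6, the build of the files), which held 14 windows of 250 bases before to 50 bases after a start site for the 10 genes. They were searched on both strands for the E-box CACGTG, an SREBP element TCACNCCAC, the CCAAT box and the GC box GGGCGG. The CCAAT box was in 9 of the 14 windows, from 8 genes, and in 37.4% of all 32851 windows. The GC box was in 6 windows, from 5 genes, and in 35.7% of all. The E-box and the SREBP element were each in 1 window, both of *Mlxipl*, and in 7.15% and 1.24% of all. A match is a description of the letters and not a binding site. The 250 bases before the start follow for *Acacb*, which differed between genotypes, for *Pnpla3*, which fell most on MCD, for *Fasn*, whose window held most CCAAT matches, and for both starts of *Mlxipl*, with matches in capitals and 5′ to 3′ on the gene's strand. The *Acacb* window is chr5:114165268-114165517, plus strand, and its start lies 18983 bases inside the GENCODE gene. The *Pnpla3* window is chr15:84167566-84167815, plus strand. The *Fasn* window is chr11:120824548-120824797, minus strand. The *Mlxipl* windows are chr5:135089640-135089889 and chr5:135106641-135106890, plus strand, the second of which belongs to a start 17001 bases inside the gene.
Acacb: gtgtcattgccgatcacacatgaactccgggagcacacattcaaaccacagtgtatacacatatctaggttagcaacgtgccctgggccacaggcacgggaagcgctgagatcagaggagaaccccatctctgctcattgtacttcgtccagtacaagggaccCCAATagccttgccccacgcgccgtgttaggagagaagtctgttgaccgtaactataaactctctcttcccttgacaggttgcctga
Pnpla3: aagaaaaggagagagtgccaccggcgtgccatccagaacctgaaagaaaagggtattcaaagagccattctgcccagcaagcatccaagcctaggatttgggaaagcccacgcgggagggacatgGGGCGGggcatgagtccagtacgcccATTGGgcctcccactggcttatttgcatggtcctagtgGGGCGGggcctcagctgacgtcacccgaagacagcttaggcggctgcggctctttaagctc
Fasn: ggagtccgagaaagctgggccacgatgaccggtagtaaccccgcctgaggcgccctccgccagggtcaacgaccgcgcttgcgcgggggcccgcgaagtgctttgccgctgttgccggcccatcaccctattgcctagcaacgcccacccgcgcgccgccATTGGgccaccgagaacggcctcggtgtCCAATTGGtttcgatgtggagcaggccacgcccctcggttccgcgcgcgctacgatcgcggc
Mlxipl, outer start: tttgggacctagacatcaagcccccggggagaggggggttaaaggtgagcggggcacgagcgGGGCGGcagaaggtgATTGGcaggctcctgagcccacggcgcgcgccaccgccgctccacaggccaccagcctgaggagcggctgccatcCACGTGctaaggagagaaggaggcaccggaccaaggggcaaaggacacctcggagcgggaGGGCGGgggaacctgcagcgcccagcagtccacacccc
Mlxipl, inner start: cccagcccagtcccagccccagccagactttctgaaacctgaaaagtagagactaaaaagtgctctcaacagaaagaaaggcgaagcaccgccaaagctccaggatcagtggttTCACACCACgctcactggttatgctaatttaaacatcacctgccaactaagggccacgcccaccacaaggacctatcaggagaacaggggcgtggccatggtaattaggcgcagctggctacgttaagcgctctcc

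The *Acacb* stretch held 1 CCAAT, starting 87 bases before the start, and no GC box. *Fasn* held 3 overlapping or nearby CCAAT matches, 90, 62 and 59 bases before the start. *Pnpla3* held 1 CCAAT and a pair of GC boxes. *Acacb*, *Fasn* and *Pnpla3* were each lower on MCD in both genotypes, and the matches in their windows differed in kind or number. Whether these letters had a part in the falls was not tested.

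Libraries held between 13751347 and 21144388 counts, with a median of 18334941. Levels are given in CPM, counts scaled to the library size with TMM factors, and levels of different genes as CPM per kilobase of exon. The length is that of all annotated exons of a gene together, which can exceed that of the transcript present. It was 17.1 kb for *Acaca* and 9.63 kb for *Acacb*. *Flcn* itself, the deleted gene, was measured with all of its exons, of which 1 is deleted. Its levels were 26.1 to 40.2 CPM (median 31.8) in Cre mice on chow and 24.2, 19.96, 16.7, 19.4 and 21.8 CPM in *Flcn* KO mice on chow. On MCD they were 31.7, 18.2, 39.9, 32.5 and 23.6 CPM in Cre mice and 17.6 to 32.6 CPM (median 26.6) in *Flcn* KO mice. The genotypes did not overlap on chow (log2 fold change −0.63, SE 0.17, edgeR adjusted p = 0.025) and overlapped on MCD (−0.16, SE 0.17, edgeR adjusted p = 0.57). Counts over the gene therefore did not separate the genotypes on MCD.

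The sex of the mice was not in the labels and was read from *Xist* and Y-linked genes. It gave 12 libraries as female and 10 as male. Cre mice on chow held 3 of each, Cre mice on MCD 3 female and 2 male, *Flcn* KO mice on chow 3 female and 2 male, and *Flcn* KO mice on MCD 3 of each. *Xist* counts were 5411 to 7573 in the libraries read as female and 0 to 19 in the others. Of the libraries read as female, 5 also held 180 to 675 Y-linked counts, against at most 51 in the other 7 and at least 1906 in those read as male. The 5 chow libraries in which a low share of reads mapped uniquely were the 5 chow libraries read as male, so sex and mapping cannot be told apart on chow. The library of Cre MCD mouse 3 stood apart, with a sum of 2708 CPM over 10 skeletal muscle genes against a group median of 17.2 CPM. Values of the 10 genes that it moved most are given with and without it.

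On chow in Cre mice *Thrsp* had the highest mean level per length, 208 CPM per kb, followed by *Acly* (146), *Fasn* (123) and *Me1* (77.8 CPM per kb). *Mlxipl* and *Srebf1* were close, at 53.3 and 52.2 CPM per kb, and *Elovl6* stood at 38.7. *Acacb* was at 22.0 CPM per kb and *Acaca* at 5.41, with *Pnpla3* between them at 6.39 CPM per kb. The place of *Acaca* rests on its exon length of 17.1 kb. The coefficient of variation in this group ran from 15.0% for *Mlxipl* to 85.8% for *Pnpla3*, so the order of neighbours such as *Acly* and *Fasn*, or *Mlxipl* and *Srebf1*, lay within their spread.

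**Figure D1:**
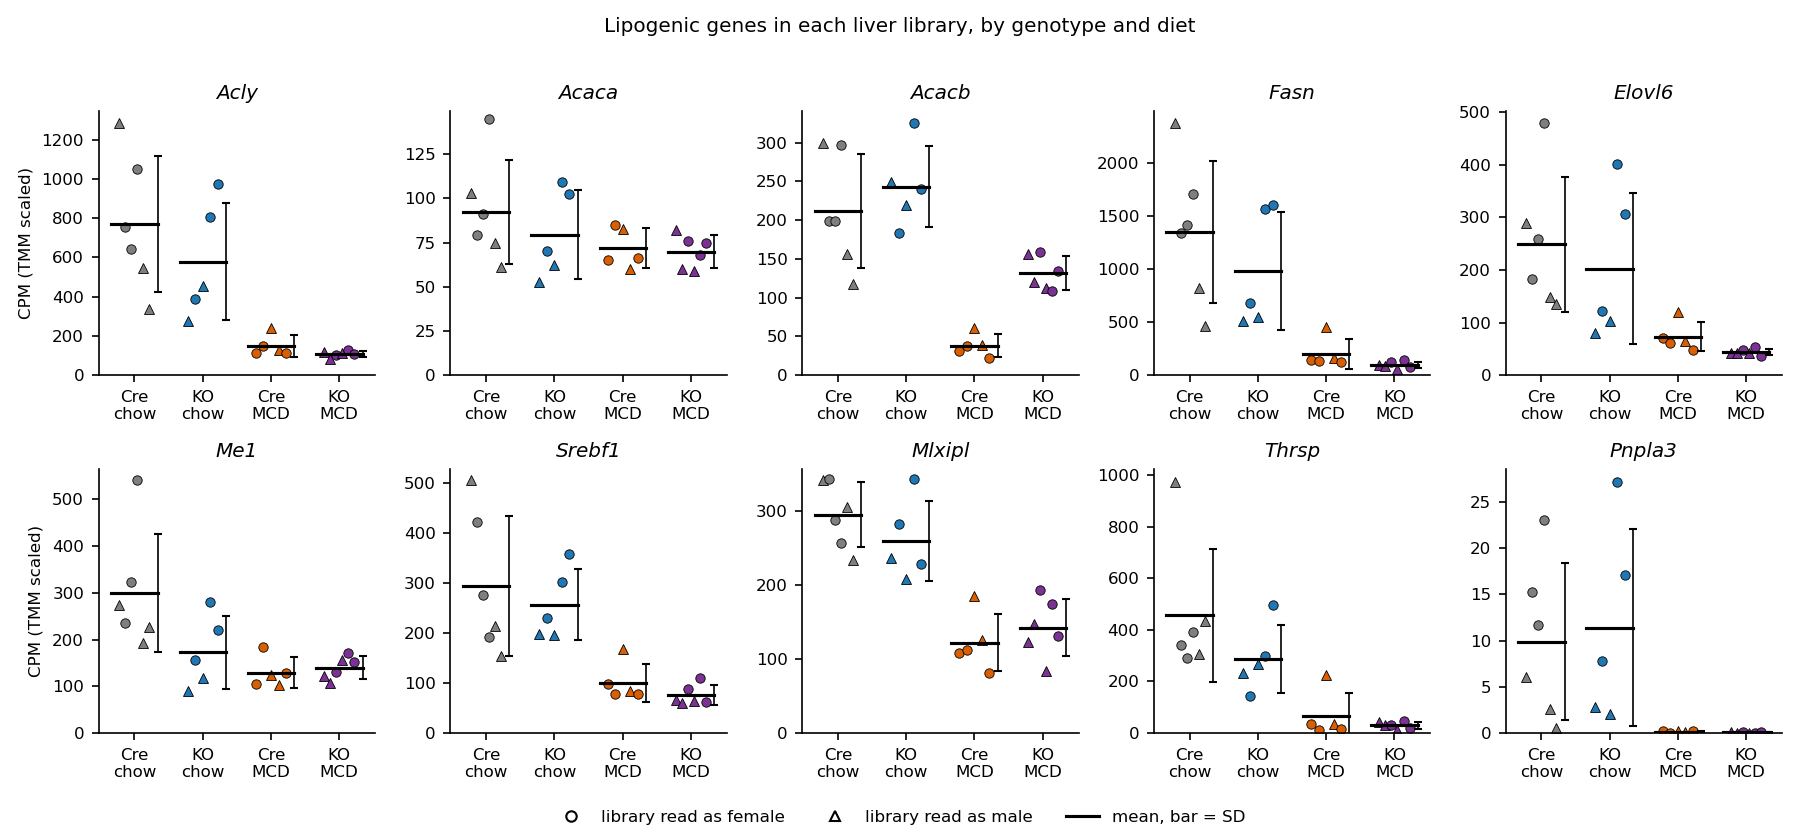
Levels of the 10 genes in CPM (y axis, from 0) in each of the 22 libraries, by group; circles are libraries read as female, triangles those read as male, lines the mean and bars the SD, of which the part below 0 is not drawn. *Acacb* on MCD lies at 21.5 to 60.6 CPM in Cre mice and at 109 to 159 CPM in *Flcn* KO mice, and *Pnpla3* is near 0 in all MCD libraries.

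The first comparison asked what 6 weeks of MCD did to the pathway in Cre livers. Of the 10 genes, 9 were lower on MCD and 0 higher at an adjusted p under 0.05, where 28.2% of all tested genes were lower and 29.3% higher. For 8 genes every MCD library was below every chow library, which held for 16.9% of tested genes. The median log2 fold change was −2.07 over the 10 genes and 0.01 over all tested genes.

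Among the enzymes, *Fasn* was at 465 to 2368 CPM (median 1372) on chow and at 143, 134, 455, 158 and 123 CPM on MCD in Cre mice. All MCD libraries were below all chow libraries, though mouse 3, at 455 CPM, came close to the lowest chow mouse. The log2 fold change was −2.74 (SE 0.45, edgeR adjusted p = 2.4e-05), a mean 6.67-fold lower, and −3.27 without mouse 3. *Acly* was at 335 to 1284.5 CPM (median 698) on chow and at 115, 148, 242, 128 and 110 CPM on MCD, with no overlap. Its log2 fold change was −2.37 (SE 0.34, edgeR adjusted p = 4.6e-06), 5.18-fold lower, and −2.62 without mouse 3. *Elovl6*, the elongase that carries palmitate to stearate, was at 136 to 480 CPM (median 219.9) on chow and at 70.3, 60.6, 119.8, 65.2 and 48.0 CPM on MCD. Its groups did not overlap either, with a log2 fold change of −1.77 (SE 0.39, edgeR adjusted p = 0.00051), or −2.02 without that mouse.

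The 2 carboxylases parted in Cre mice. *Acacb* was at 118 to 299 CPM (median 199) on chow and at 31.0, 38.1, 60.6, 38.9 and 21.5 CPM on MCD. The groups did not overlap, and the log2 fold change was −2.48 (SE 0.25, edgeR adjusted p = 5.8e-08), and −2.71 without mouse 3. *Acaca* was at 61.2 to 145 CPM (median 85.2) on chow and at 65.1, 85.1, 82.8, 60.3 and 66.1 CPM on MCD, with overlapping groups. Its log2 fold change of −0.36 (SE 0.20) did not pass the test (edgeR adjusted p = 0.12), but passed at −0.55 without the 5 chow libraries of low unique mapping (adjusted p = 0.020). *Me1* was at 194 to 542 CPM (median 255) on chow and at 106, 184, 123, 103 and 128 CPM on MCD, so that its highest MCD library lay just under its lowest chow library (log2 fold change −1.22, SE 0.27, edgeR adjusted p = 0.00072).

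Of the regulators, *Srebf1* was at 153 to 506 CPM (median 245) on chow and at 98.1, 77.3, 167, 83.5 and 78.5 CPM on MCD in Cre mice. Mouse 3 on MCD lay above the lowest chow mouse, so the groups overlapped, with a log2 fold change of −1.54 (SE 0.29, edgeR adjusted p = 0.00012), or −1.80 without it. Among libraries read as male alone it did not pass (−1.19, edgeR adjusted p = 0.065). *Mlxipl* was at 235 to 343 CPM (median 297) on chow and at 108, 112, 185, 126 and 80.6 CPM on MCD, with no overlap. Its fall was smaller, at −1.27 on the log2 scale (SE 0.20, edgeR adjusted p = 2.1e-05), or −1.47 without mouse 3. The counts sum the isoforms of each gene, so SREBP-1a and SREBP-1c, or the alpha and beta forms of ChREBP, were not separated.

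*Thrsp* was at 289 to 973 CPM (median 366) on chow and at 35.3, 11.9, 224, 36.5 and 14.9 CPM on MCD in Cre mice. The groups did not overlap, and mouse 3, at 224 CPM, stood far above the other 4 MCD mice. The log2 fold change was −2.82 (SE 0.62, edgeR adjusted p = 0.00062) with that mouse and −4.21 without it, and did not pass among libraries read as male alone (−2.11, edgeR adjusted p = 0.054). *Pnpla3*, whose human counterpart carries a common variant linked to fatty liver, was at 0.562 to 23.1 CPM (median 8.88) on chow. On MCD the 5 Cre libraries held 4, 0, 5, 3 and 5 counts. Summed over libraries the counts were 943 on chow and 17 on MCD, 67.9-fold lower for the depth (95% interval 42.2 to 117, counting error alone). The test over mice gave an edgeR adjusted p of 1.3e-05. The 3 chow libraries read as female held 820 of the 943 counts, and the log2 fold change was −6.88 among libraries read as female (edgeR adjusted p = 2.2e-06) and −3.95 among those read as male (adjusted p = 0.0083), a difference that was not tested.

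The same comparison in *Flcn* KO mice found 8 of the 10 genes lower on MCD and 0 higher, where 22.5% of tested genes were lower and 22.5% higher. In all 8 the groups did not overlap, which held for 14.8% of tested genes in this direction. The median log2 fold change was −1.99 over the 10 genes. *Acaca* and *Me1* were the 2 that did not pass. The response to MCD in both genotypes is drawn in the plot of log2 fold changes, and the 2 comparisons use separate mice.

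*Fasn* was at 514, 677, 547, 1565 and 1597 CPM on chow and at 60.4 to 141 CPM (median 89.5) on MCD in *Flcn* KO mice. Its log2 fold change was −3.34 (SE 0.43, edgeR adjusted p = 2.7e-06), 10.1-fold lower. *Acly* was at 273, 388, 453, 806 and 974 CPM on chow and at 82.9 to 127 CPM (median 108) on MCD, at −2.42 (SE 0.32, edgeR adjusted p = 3.8e-06). For both enzymes the chow mice fell over a wide range while the MCD mice lay close together. *Elovl6* was at 80.7, 121, 103, 401 and 306 CPM on chow and at 36.5 to 52.7 CPM (median 42.3) on MCD, at −2.21 (SE 0.38, edgeR adjusted p = 6.7e-05).

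*Acacb* fell less in *Flcn* KO mice. It was at 248.7, 183, 219, 325 and 240 CPM on chow and at 109 to 159 CPM (median 128) on MCD. The groups did not overlap, and the log2 fold change was −0.88 (SE 0.23, edgeR adjusted p = 0.0040), so that MCD livers kept 54.3% of the chow mean against 18.0% in Cre mice. The fall did not pass among libraries read as male alone (−0.86, edgeR adjusted p = 0.10). *Acaca* was at 52.9, 70.5, 62.1, 109.5 and 102 CPM on chow and at 59.0 to 82.1 CPM (median 71.2) on MCD (log2 fold change −0.19, SE 0.20, edgeR adjusted p = 0.46). *Me1* was at 89.4, 156, 117, 281 and 220 CPM on chow and at 106 to 170 CPM (median 141) on MCD (−0.31, SE 0.27, edgeR adjusted p = 0.36). The MCD values of both genes lay inside the range of the chow values. Without the 5 chow libraries of low unique mapping *Me1* passed, at −0.65 (edgeR adjusted p = 0.035).

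*Srebf1* was at 198, 230, 196, 301 and 359 CPM on chow and at 60.4 to 111 CPM (median 65.6) on MCD in *Flcn* KO mice (log2 fold change −1.77, SE 0.28, edgeR adjusted p = 3.3e-05). *Mlxipl* was at 237, 283, 208, 344 and 229 CPM on chow and at 84.3 to 194 CPM (median 139) on MCD (−0.87, SE 0.20, edgeR adjusted p = 0.0012). In both genes every MCD library was below every chow library. *Thrsp* was at 234, 142, 266, 297 and 498 CPM on chow and at 13.5 to 47.2 CPM (median 31.5) on MCD (−3.23, SE 0.61, edgeR adjusted p = 0.00018). *Pnpla3* was at 2.80, 7.78, 2.08, 27.2 and 17.1 CPM on chow, while the 6 MCD libraries held 1 to 3 counts each. Its summed counts went from 1008 to 11, 143-fold lower for the depth (95% interval 79.8 to 288, counting error alone; edgeR adjusted p over mice 4.1e-06). Libraries read as female held 941 of the 1008 chow counts, with log2 fold changes of −7.35 among females and −4.91 among males.

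**Figure D2:**
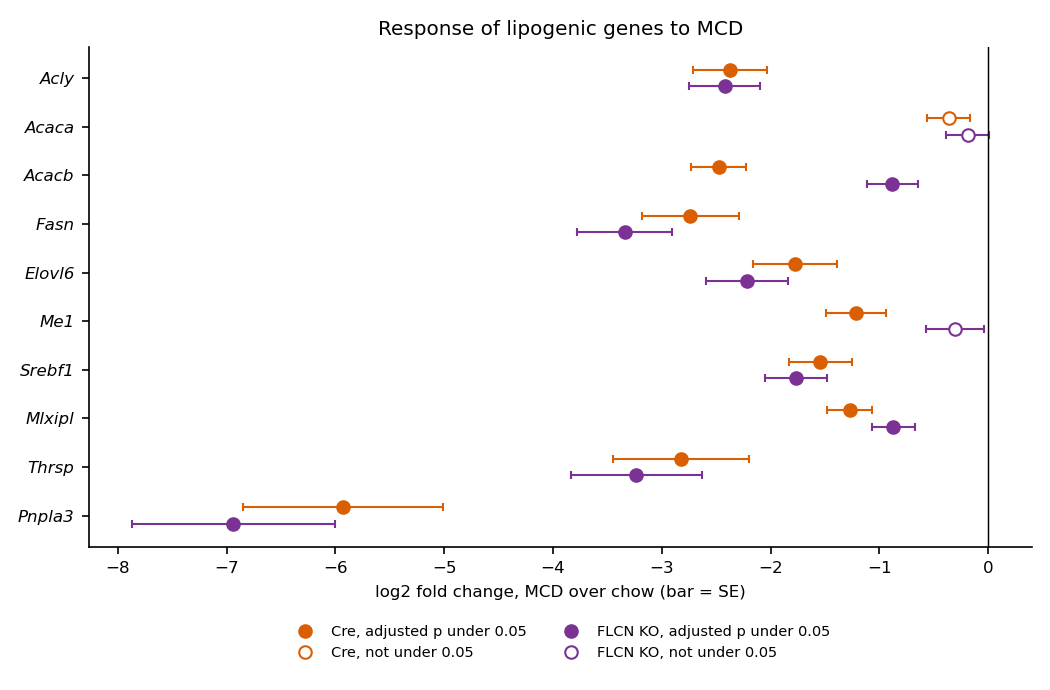
Log2 fold change of MCD over chow (x axis) for the 10 genes in Cre (orange) and *Flcn* KO mice (purple); bars are the SE, and filled points passed an adjusted p under 0.05. The pair of *Acacb* points, at −2.48 and −0.88, stands apart, while those of *Acly* lie at −2.37 and −2.42.

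Whether the response to MCD depended on genotype was tested by the interaction term over all 22 libraries. *Acacb* was the 1 gene of the 10 that passed, at +1.60 on the log2 scale (SE 0.34, edgeR adjusted p = 0.0063), which means a smaller fall in *Flcn* KO mice. Among all tested genes the term was above 0 and passed for 3.29% and below 0 for 5.54%. *Me1* was next, at +0.91 (SE 0.38, edgeR adjusted p = 0.14). The other 8 had terms between −1.01 (*Pnpla3*, which rests on 0 to 5 counts in each MCD library) and +0.40 (*Mlxipl*), none of which passed. Without Cre MCD mouse 3 the *Acacb* term was +1.83 (edgeR adjusted p = 0.0015), and the other 9 ran from −0.83 (*Pnpla3*) to +0.97 (*Thrsp*), none of which passed. That of *Acacb* was +2.04 among libraries read as female (adjusted p = 0.0057) and +1.06 among those read as male, where it did not pass (adjusted p = 0.46). That difference between the sexes was not tested.

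The 2 carboxylases were compared within each library, where depth cancels out. The ratio of *Acacb* to *Acaca*, each per kilobase of exon, was 3.42 to 5.16 (median 3.79) in Cre mice on chow and 0.576 to 1.297 (median 0.845) in Cre mice on MCD. In *Flcn* KO mice it was 4.15 to 8.33 (median 5.27) on chow and 2.83 to 3.70 (median 3.39) on MCD. With these lengths the *Flcn* KO mice on MCD kept *Acacb* as the more abundant carboxylase transcript in 6 of 6 livers. In Cre mice on MCD the ratio was near or under 1. The size of the ratio depends on the exon lengths used, while its comparison between groups does not.

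**Figure D3:**
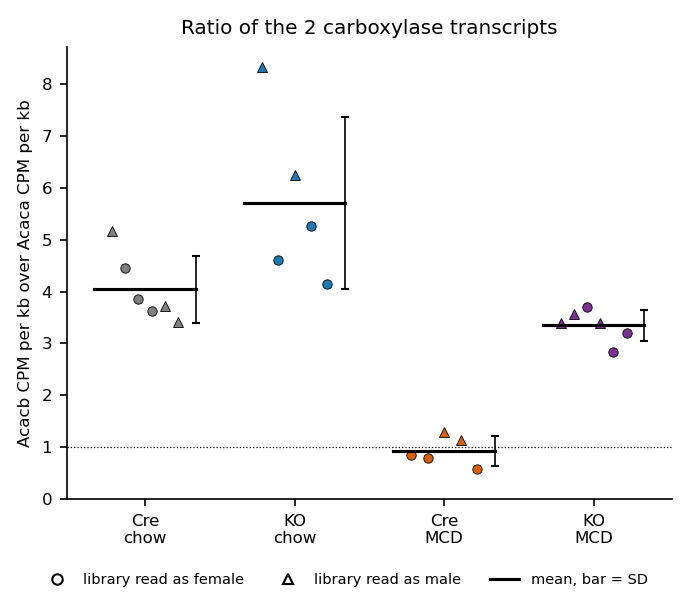
Ratio of *Acacb* to *Acaca* (y axis, CPM per kb of each) in each library by group, with mean (line) and SD (bar); circles are libraries read as female and triangles those read as male, and the dotted line marks equal levels per kb of annotated exon. The Cre MCD libraries lie between 0.576 and 1.297, below the other 3 groups, whose lowest ratio is 2.83.

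On chow the genotypes were compared directly, to ask whether loss of *Flcn* alone moved the pathway. None of the 10 genes passed by edgeR, where 5.52% of tested genes were higher and 3.10% lower in *Flcn* KO livers, and 1 of the 10, *Me1*, had an unadjusted p under 0.05. *Me1* was 1.73-fold lower in the mean of *Flcn* KO mice (log2 fold change −0.79, SE 0.27, edgeR adjusted p = 0.072), with overlapping groups. By DESeq2 it passed (adjusted p = 0.029), as it did with the inferred sex as a covariate (−0.88, edgeR adjusted p = 0.013). The log2 fold changes of the other 9 ran from −0.66 (*Thrsp*, SE 0.58) to +0.20 (*Acacb*, SE 0.23, and *Pnpla3*, SE 0.61).

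On MCD, in the fit of all libraries, 1 of the 10 genes, *Acacb*, was higher in *Flcn* KO than in Cre mice and 0 were lower. Among tested genes 8.06% were higher and 8.53% lower. Its 6 *Flcn* KO libraries, at 109 to 159 CPM, all lay above the 5 Cre libraries, at 21.5 to 60.6 CPM, a separation that 5.08% of tested genes had in this direction. The log2 fold change was +1.80 (SE 0.25, edgeR adjusted p = 3.6e-05). It was +2.03 without Cre MCD mouse 3 and +1.38 among libraries read as male (edgeR adjusted p = 0.057). This comparison shares its Cre and *Flcn* KO MCD libraries with the diet comparisons and the interaction, so it is not separate evidence.

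None of the other 9 genes passed between genotypes on MCD in the edgeR fit of all libraries. In that fit 2 of the 10 genes had an unadjusted p under 0.05, *Acacb* and *Fasn*. *Fasn* had a log2 fold change of −1.07 (SE 0.41, edgeR adjusted p = 0.079), with Cre libraries at 123 to 455 CPM and *Flcn* KO libraries at 60.4 to 141 CPM. Without Cre MCD mouse 3 this was −0.53 (adjusted p = 0.35). *Elovl6* was at −0.74 (SE 0.37, edgeR adjusted p = 0.19), or −0.48 without that mouse (adjusted p = 0.41). *Acly* was at −0.46 (SE 0.31, edgeR adjusted p = 0.35), or −0.21 without it (adjusted p = 0.70). *Thrsp* was at −1.08 (SE 0.57, edgeR adjusted p = 0.22), which turned to +0.31 without mouse 3. *Srebf1* (−0.42, SE 0.28, and −0.16 without mouse 3), *Mlxipl* (+0.22, SE 0.20, and +0.42 without it), *Me1* (+0.12, SE 0.27) and *Acaca* (−0.04, SE 0.20) did not pass either. Other edgeR fits did call some of these genes. *Elovl6* passed as lower with the 2 MCD groups fitted alone (edgeR adjusted p = 0.023), and *Fasn* without the 5 chow libraries of low unique mapping. *Mlxipl* passed as higher among libraries read as female. *Pnpla3* is given no fold here, since the libraries of both groups held 0 to 5 counts.

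**Figure D4:**
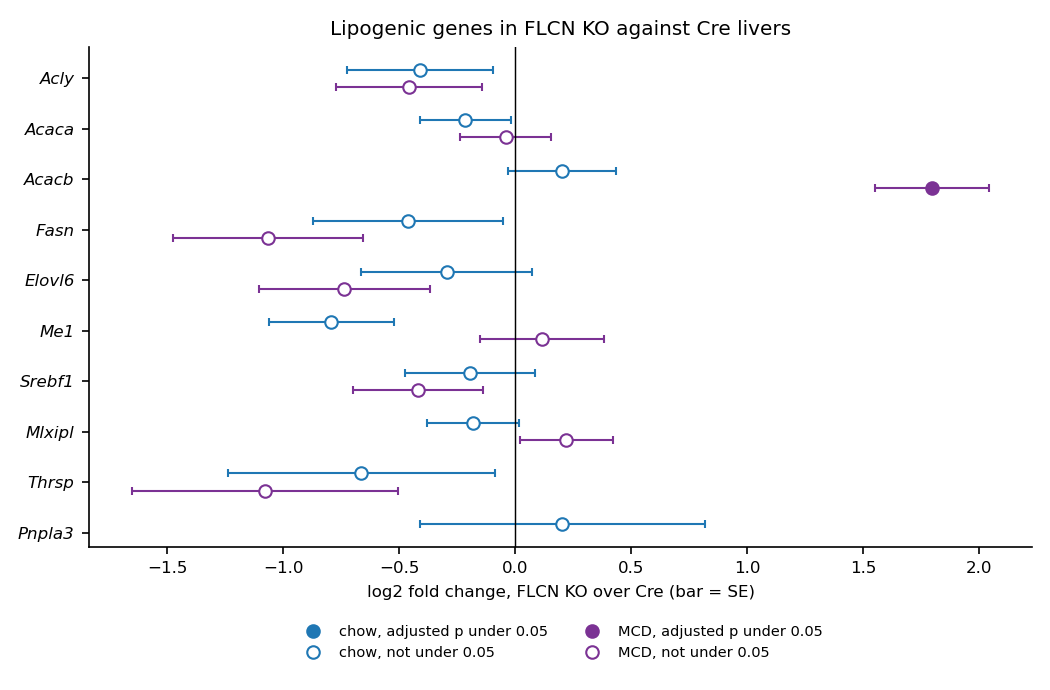
Log2 fold change of *Flcn* KO over Cre (x axis) for the 10 genes on chow (blue) and on MCD (purple); bars are the SE, and filled points passed an adjusted p under 0.05. *Acacb* on MCD, at +1.80, is the filled point. *Pnpla3* has no MCD point, since its libraries held 0 to 5 counts.

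Genes that restrain acetyl-CoA carboxylase or remove its product were taken as a list of 8, the subunits of AMP-activated kinase, which phosphorylates and inhibits both carboxylases, its upstream kinase *Stk11*, and malonyl-CoA decarboxylase (*Mlycd*). In Cre mice on MCD 2 were higher and 4 lower, where 29.3% and 28.2% of all tested genes were, and in *Flcn* KO mice 2 were higher and 0 lower, where 22.5% and 22.5% were. The counts without Cre MCD mouse 3 were 1 higher and 3 lower in Cre mice and 2 and 1 in *Flcn* KO mice. Between genotypes on MCD 3 were higher in *Flcn* KO mice and 0 lower, with a list median of +0.17 against −0.01 for all tested genes, of which 8.06% were higher and 8.53% lower. On chow 1 was higher and 0 lower, where 5.52% and 3.10% were. *Prkaa2*, a catalytic subunit, averaged 38.0 CPM in Cre and 56.1 CPM in *Flcn* KO mice on MCD (log2 fold change +0.56, SE 0.14, edgeR adjusted p = 0.0090). *Mlycd*, which removes malonyl-CoA, averaged 66.2 and 88.4 CPM (+0.42, SE 0.13, edgeR adjusted p = 0.032), which did not pass without Cre MCD mouse 3 (+0.36, adjusted p = 0.076). Both had fallen on MCD in Cre mice, by 0.55 on the log2 scale each. *Prkag2* fell on MCD in Cre mice (−0.76, edgeR adjusted p = 0.00012), and *Prkab2* rose in both genotypes, by +1.04 in Cre and +0.56 in *Flcn* KO mice. None of the 8 passed the interaction by edgeR, and 3 had an unadjusted p under 0.05. Without Cre MCD mouse 3 *Prkag2* passed it, at +0.65 (edgeR adjusted p = 0.010).

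Of 20 genes that supply carbon or NADPH to the pathway, 10 were lower and 4 higher on MCD in Cre mice, and 8 lower and 5 higher in *Flcn* KO mice. Among all tested genes 28.2% were lower and 29.3% higher in Cre mice, and 22.5% each way in *Flcn* KO mice. *Acss2*, which makes acetyl-CoA from acetate, went from 709 to 50.9 CPM in Cre and from 478 to 43.9 CPM in *Flcn* KO mice (log2 fold changes −3.80 and −3.44, edgeR adjusted p = 2.9e-10 and 8.0e-10). *Pklr*, the liver pyruvate kinase and a ChREBP target, went opposite ways, from 381 to 209 CPM in Cre mice and from 388 to 601 CPM in *Flcn* KO mice (log2 fold changes −0.86 and +0.63, interaction +1.49, SE 0.29, edgeR adjusted p = 0.0033). *Slc13a5*, a citrate transporter of low level, also did, from 1.09 to 6.17 CPM in Cre and from 2.24 to 1.201 CPM in *Flcn* KO mice (interaction −3.39, SE 0.41, edgeR adjusted p = 7.8e-05). Between genotypes 4 of the 20 were higher and 3 lower on MCD (8.06% and 8.53% of all tested genes), and 1 higher and 2 lower on chow (5.52% and 3.10% of all). For the interaction 2 were above 0 and 1 below, where 3.29% and 5.54% of tested genes were. Without Cre MCD mouse 3 the counts on MCD were 6 and 5, and those of the interaction 6 and 1. In that fit 577 of all tested genes had an interaction above 0, against 463 with all libraries.

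Of 14 other SREBP-1c targets, 13 were tested, and 8 were lower and 2 higher on MCD in Cre mice, with 8 lower and 1 higher in *Flcn* KO mice. The shares of all tested genes were 28.2% lower and 29.3% higher in Cre mice, and 22.5% and 22.5% in *Flcn* KO mice. *Scd1*, the desaturase that makes oleate, went from 12919 to 151 CPM in Cre and from 10824 to 155 CPM in *Flcn* KO mice (log2 fold changes −6.42 and −6.13, edgeR adjusted p = 8.6e-07 and 9.7e-07). Its log2 fold change in Cre mice was −7.47 without Cre MCD mouse 3, and its difference between genotypes on MCD went from +0.03 (adjusted p = 0.98) to +1.08 (edgeR adjusted p = 0.20). *Elovl5* (−1.70 and −1.62) and *Acsl5* (−1.40 and −1.37) also fell in both genotypes. *Cidec*, a lipid droplet protein, rose instead, from 0.907 to 102 CPM in Cre and from 2.43 to 51.7 CPM in *Flcn* KO mice, with an interaction of −2.34 (SE 0.71, edgeR adjusted p = 0.042). Between genotypes 1 was higher and 1 lower on MCD (8.06% and 8.53% of all tested genes), and 0 differed on chow by edgeR, where 4 had an unadjusted p under 0.05 and 5.52% of all tested genes were higher and 3.10% lower.

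Of 12 other ChREBP targets, 11 were tested. On MCD 5 were lower and 2 higher in Cre mice, and 4 lower and 3 higher in *Flcn* KO mice, beside 28.2% lower and 29.3% higher of all tested genes in Cre mice and 22.5% each way in *Flcn* KO mice. *G6pc*, the catalytic subunit of glucose-6-phosphatase, fell in both (−2.47 and −1.82), as did *Arrdc4* (−1.18 and −1.02). *Fgf21*, a hepatic hormone of nutrient stress, rose from 2.32 to 46.3 CPM in Cre and from 1.37 to 15.4 CPM in *Flcn* KO mice, and was lower in *Flcn* KO than in Cre mice on MCD (−1.59, SE 0.43, edgeR adjusted p = 0.013). *Pklr* was the 1 higher in *Flcn* KO mice on MCD (+1.52, SE 0.21, edgeR adjusted p = 3.2e-05), beside 3 that were lower, where 8.06% and 8.53% of all tested genes were.

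Among 25 upstream regulators of lipogenesis, from SCAP and the INSIG proteins to LXR, insulin signalling and mTORC1, 12 were lower and 4 higher on MCD in Cre mice, and 9 lower and 3 higher in *Flcn* KO mice. Of all tested genes, 28.2% were lower and 29.3% higher in Cre mice, and 22.5% each way in *Flcn* KO mice. *Insig1*, an SREBP target that retains SREBPs in the endoplasmic reticulum, fell in both genotypes (−1.64 and −1.77), as did *Mid1ip1* (−2.06 and −1.94), a paralog of *Thrsp* that promotes polymerization of acetyl-CoA carboxylase. *Pparg*, a lipogenic nuclear receptor, rose (+1.29 and +1.00, edgeR adjusted p = 0.00012 and 0.0020). *Nr0b2*, a repressor induced by bile acids, fell in Cre mice (−1.38, edgeR adjusted p = 0.0036). Between genotypes 0 of the 25 passed on MCD by edgeR, where 4 had an unadjusted p under 0.05, and 1 was lower on chow. All tested genes passed on MCD in 8.06% (higher) and 8.53% (lower) and were lower on chow in 3.10%. In the interaction 1 of the 25 was above 0 and 0 below, where 3.29% and 5.54% of all tested genes were. Without Cre MCD mouse 3, 1 of the 25 was lower between genotypes on MCD.

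Of 8 LXR targets, 2 were higher and 2 lower on MCD in Cre mice, and 2 higher and 1 lower in *Flcn* KO mice, where 29.3% and 28.2% of all tested genes passed in Cre mice and 22.5% each way in *Flcn* KO mice. With Cre MCD mouse 3 left out these counts were 1 and 2 in Cre mice and 2 and 2 in *Flcn* KO mice. *Pltp*, a phospholipid transfer protein, fell in both (−1.56 and −1.21). *Abcg1*, a sterol transporter, rose (+0.96 and +0.38), and *Mylip*, which degrades the LDL receptor, rose in Cre mice (+0.42, edgeR adjusted p = 0.030), but did not pass without Cre MCD mouse 3 (+0.34, adjusted p = 0.088). *Lpcat3*, which remodels phospholipids, was 106 CPM in Cre and 154 CPM in *Flcn* KO mice on MCD (+0.53, SE 0.09, edgeR adjusted p = 0.00028), with an interaction of +0.48 (edgeR adjusted p = 0.019). Of 12 genes of the fed and fasted states, 4 were higher and 3 lower on MCD in Cre mice, and 5 higher and 3 lower in *Flcn* KO mice, beside the same shares of all tested genes. The counts in Cre mice were 3 higher and 5 lower without Cre MCD mouse 3. Between genotypes 1 was higher and 3 lower on MCD (8.06% and 8.53% of all tested genes), or 1 and 1 without that mouse, and 2 were lower on chow (3.10% of all), where 1 was also higher without it (5.52% of all with all libraries). *Igfbp1*, a gene repressed by insulin, was higher in both (+2.18 and +1.75, edgeR adjusted p = 0.0015 and 0.012). *Fgf21* of the same list was also higher in both (+4.33 and +3.50), whereas *G6pc* was lower in both (−2.47 and −1.82). The genes of this list thus moved both ways.

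Within groups most pairs of the 10 genes varied in the same direction, which was not compared with pairs of other genes. Over the 22 libraries with group means removed, 44 of 45 pairs had a positive Pearson r, with a median of 0.63, as a description of libraries that share depth and preparation. *Fasn* and *Acly* were the closest pair (0.89), and *Thrsp* and *Me1* the least alike (−0.05). *Fasn* had the highest median r to the others, 0.75, and *Mlxipl* the lowest, 0.40. Without the 5 chow libraries of low unique mapping the median was 0.53 and 41 pairs were positive. Both the inferred sex and the share of uniquely mapped reads ran through the chow groups, and their part in these values was not tested.

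**Figure D5:**
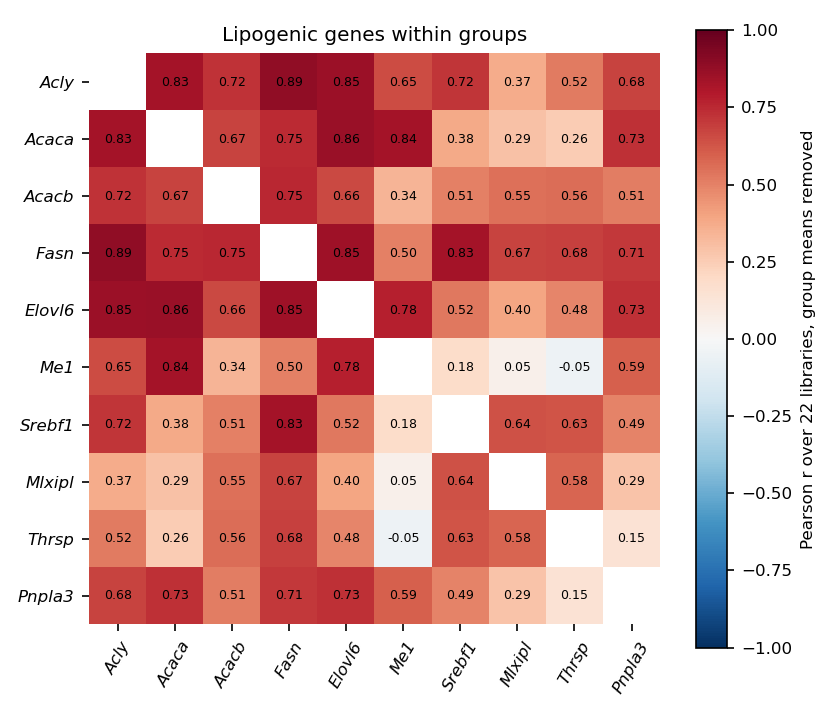
Pearson r between each pair of the 10 genes over 22 libraries with group means removed (colour and number in each cell, red above 0 and blue below). *Acly*, *Acaca*, *Fasn* and *Elovl6* form the reddest block, with r from 0.75 to 0.89, and *Me1* with *Thrsp* and *Mlxipl* is near 0.

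On chow *Pnpla3* split by the sex that was read, at 7.78 to 27.2 CPM in the 6 libraries read as female and at 0.562 to 6.09 CPM in the 5 read as male. The other 9 genes overlapped between the sexes on chow. The share of all tested genes that split in this way was not counted, so these counts cannot be set against it. Their medians in libraries read as female and male were 1488 and 547 CPM for *Fasn*, 780 and 453 CPM for *Acly* and 282 and 136 CPM for *Elovl6*. They were close for *Acacb* (219.7 and 219 CPM) and *Thrsp* (319 and 306 CPM), and the mean of *Thrsp* was the higher in libraries read as male (443 against 326 CPM). For *Me1*, *Srebf1*, *Acaca* and *Mlxipl* they were 258 and 194, 289 and 198, 96.9 and 62.1, and 285 and 237 CPM. The 5 male libraries were also those of low unique mapping, and the 2 cannot be told apart.

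The genes most like the 10, by the correlation of their log2 level with the mean of the members' standardised levels, were found over all tested genes. Over the 22 libraries *Dock6* led with r = 0.96, followed by *Acy1* (0.95), *Acss2* (0.95), *Acsl5* (0.95), and then *Gls2*, *Pstpip2*, *Slc29a1*, *Mthfd1*, *Paox* and *Camk1d*, each at 0.94. With group means removed *Dock6* led again (0.91), followed by *Gdf10* (0.86), *Ddit4l* (0.84), *Slc2a4* (0.83), *Zswim9* (0.83), *Pter* (0.82), *As3mt* (0.82), *Mmd2* (0.81), *Adamts10* (0.81) and *Mgp* (0.81). These values are descriptions over libraries that share their groups.

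*Srebf1* lies on the same chromosome as *Flcn*, at chr11:60199089-60222581 against chr11:59791408-59810016 (GRCm38), 389 kb apart. Of 44 tested genes within 1 Mb of *Flcn*, 8 differed between genotypes on chow and 10 on MCD, and *Srebf1* was in neither set. Among all tested genes 5.52% were higher and 3.10% lower on chow, and 8.06% higher and 8.53% lower on MCD. *2610507I01Rik*, 589 kb away, was lower in *Flcn* KO livers on both diets (log2 fold changes −5.61 and −4.86), as were *Gm12265* (−2.11 and −2.89), which lies 430.8 kb from *Flcn*, *Zfp39* (−1.48 and −0.99) and *Guk1* (−0.69 and −0.67). *Llgl1* (+0.45) was higher, and *Pld6* (−1.25), *Cops3* (−0.29) and *Gid4* (−0.28) were lower on chow. Among those that differed on MCD, *2810021J22Rik* (+1.03), *Shmt1* (+0.60) and *Pemt* (+0.39) were higher and *2310058D17Rik* (−0.94) and *Rasd1* (−1.26) lower. For genes in this stretch, loss of *Flcn* and DNA linked to the targeted allele cannot be told apart.

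Markers of liver and other cell types were summed beside these results. The 8 hepatocyte markers, led by *Alb*, had a median sum of 136430 CPM in Cre and 121420 CPM in *Flcn* KO mice on chow, and 104140 and 77804 CPM on MCD. They fell with the lipogenic genes on MCD, 6 of 8 in Cre and 5 of 8 in *Flcn* KO mice, where 28.2% and 22.5% of all tested genes were lower. The 8 stellate cell markers, led by *Dcn*, went from 333 to 609 CPM in Cre and from 396 to 400 CPM in *Flcn* KO mice, and 5 of 8 were lower in *Flcn* KO mice on MCD, or 3 without Cre MCD mouse 3, against 8.53% of all tested genes. The 9 macrophage markers, led by *Cd5l*, went from 532 to 675 CPM in Cre and from 614 to 442 CPM in *Flcn* KO mice. The 8 endothelial markers, led by *Eng*, went from 253 to 222 and from 301 to 230 CPM, and the 6 bile duct markers, led by *Spp1*, from 57.5 to 134 and from 117 to 124 CPM. The part of these shifts in the values of the 10 genes was not tested.

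Adipocyte and skeletal muscle markers matter here, since fat makes fatty acids by the same enzymes and muscle is rich in *Acacb*. Of 8 adipocyte markers, 2 were tested, led by *Adrb3*, and *Lep* was at 0 in all libraries. Their sum, over all 8, was 6.18 to 14.6 CPM (median 10.4) in Cre and 5.71 to 25.3 CPM (median 9.48) in *Flcn* KO mice on chow. On MCD it was 1.34 to 27.2 CPM (median 2.18) in Cre mice, with the highest value in mouse 3, and 1.35 to 4.06 CPM (median 2.74) in *Flcn* KO mice. The sum was lower on MCD in the median of both genotypes. *Adrb3* alone averaged 5.92 CPM over all libraries, so the sum is largely the level of 1 gene. Of the 2 tested markers, 1 passed as lower on MCD in each genotype, where 28.2% (Cre) and 22.5% (*Flcn* KO) of all tested genes were. Of the 2, 1 was also lower in *Flcn* KO than in Cre mice on MCD (8.53% of all tested genes), and none were by edgeR without Cre MCD mouse 3, where 0 had an unadjusted p under 0.05. The part of these markers in the values of the 10 genes was not tested. The sums of the 10 muscle markers, led by *Myh1*, were 1.34 to 5.89 CPM (median 1.70) in Cre and 0.993 to 12.3 CPM (median 1.56) in *Flcn* KO mice on chow. On MCD they were 17.2, 2.37, 2708, 133 and 1.13 CPM in Cre mice and 1.01 to 60.8 CPM (median 1.18) in *Flcn* KO mice. All 10 passed as lower in *Flcn* KO than in Cre mice on MCD and as higher on MCD in Cre mice, as 8.53% and 29.3% of all tested genes did. Without Cre MCD mouse 3, 7 were tested, of which 0 passed between genotypes on MCD by edgeR (0 with an unadjusted p under 0.05) and 6 were higher on MCD in Cre mice. The *Acacb* level of mouse 3 was 60.6 CPM, the highest of the Cre MCD mice, and the part of muscle RNA in it was not tested. The 8 acinar markers, of which 2 were tested, led by *Cela1* and with *Amy2a5* at 0, had median sums of 48.4 CPM in Cre and 22.2 CPM in *Flcn* KO mice on chow and of 14.7 and 11.0 CPM on MCD. *Cela1* alone averaged 23.6 CPM over all libraries, so these sums rest mostly on 1 gene.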

How the data were processed

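Liver RNA of 22 mice had been sequenced by the authors with the KAPA mRNA HyperPrep kit and adapters that carry molecular identifiers, as single reads on a NextSeq 500. Reads were trimmed below a Phred score of 30 with Trimmomatic, aligned with STAR to GRCm38 and counted per gene with HTSeq. Whether identifiers were collapsed and which strand setting was used are not given in the sources used here. *Srebf1* shares 109 exon bases with *Rai1* on the opposite strand and *Mlxipl* 235 with *Gm43500*, whose reads cannot be told apart without strand.

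The deposited table holds raw counts of 55573 genes. The 14062 genes whose counts averaged 10 or more were fitted over all 4 groups with edgeR 4.0.16 (R 4.3.3), using TMM and the quasi-likelihood test, with p-values adjusted over all of these genes after Benjamini and Hochberg. For edgeR, SE is the absolute log2 fold change divided by the square root of the F statistic of its test. Shares of all tested genes are those of the fit of all libraries, also where list counts without Cre MCD mouse 3 stand beside them. Log2 levels for correlations used a prior count of 2. Positions and exon lengths came from GENCODE M21, and 93 genes had none. Likeness was the Pearson correlation with the mean of the 10 standardised log2 levels. All 50 pairs of libraries within groups differed (Spearman 0.909 to 0.926). The labels name no separate litters, so p-values measure the spread between these mice. The members, 7 pathway lists and 8 marker lists were chosen with earlier results of these data known. Named were the 10 genes, *Flcn*, up to 4 genes per list with the largest passing change and a mean of at least 1 CPM, the 10 most alike on each scale, leading markers and those at 0, and passing genes within 1 Mb of *Flcn*. Of the genes this names, 2 are not reported here. Alternatives were DESeq2 1.42.0, limma-voom (limma 3.58.1), RLE size factors, other filters, a replicate block, the sex read as a covariate, leaving out libraries (single ones, or the 5 on chow with low unique mapping in the study's library statistics) and fitting each sex alone, the last chosen after the data were seen.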

Additional observations from a re-analysis of the deposited data

Results flagged for a closer look

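Among the 40 sets of a gene in a group, 6 held a library far from the others of its group, where chance gives about 1 in 20. The sets are not independent, since most pairs of genes were positively correlated within groups and several of the 6 were of the same library. The count is therefore no test against chance. In Cre mice on MCD the library of mouse 3 was the highest for *Fasn* (455 CPM), *Acly* (242 CPM), *Srebf1* (167 CPM) and *Thrsp* (224 CPM). It also held 2708 CPM of the 10 skeletal muscle markers and 27.2 CPM of the 8 adipocyte markers, and the part of these in its lipogenic levels was not tested. In Cre mice on chow *Me1* was highest in mouse 4, at 542 CPM, and *Thrsp* in mouse 1, at 973 CPM. The response of *Acacb* to MCD differed between genotypes, by 1.60 on the log2 scale in the interaction test.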

How the results depend on the processing

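Over all alternatives *Acacb* ran from −2.94 to −1.92 for MCD in Cre mice and passed in each. Its difference between genotypes on MCD ran from +1.38 to +2.15 and was lost among libraries read as male alone (adjusted p = 0.057), as was its interaction (+1.06, adjusted p = 0.46) and its fall in *Flcn* KO mice (−0.86, adjusted p = 0.10). With single mice left out it ran from +1.65 to +2.03 and passed in all 22 fits. Fits of 1 sex alone have 2 or 3 mice per group, and mouse 3 is 1 of the 2 Cre MCD mice read as male. The cause of these losses was not tested. Depth limits *Pnpla3* on MCD, at 0 to 5 counts per library, and no value was obtained for it there with the 2 MCD groups fitted alone, where it was below the count filter.

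On chow 1 gene of the 10, *Me1*, was lower in *Flcn* KO mice by DESeq2, with sex as a covariate, among males alone (−1.13) and without *Flcn* KO chow mouse 4 (−1.04), so that with single mice left out the count was 0 to 1. On MCD 2 genes were higher among females alone, where *Mlxipl* joined at +0.73 (adjusted p = 0.020), 0 among males alone, and 1 was lower with the 2 groups fitted alone (*Elovl6*, −0.74, adjusted p = 0.023) or without the 5 chow libraries of low unique mapping (*Fasn*, −1.07, adjusted p = 0.031). For the interaction 2 genes were above 0 with sex as a covariate (*Me1* joined at +1.05, adjusted p = 0.034) and 0 among males alone. *Acaca* passed on MCD in Cre mice among females alone (−0.54) and without Cre chow mouse 6 (−0.46), giving 9 to 10 lower genes with single mice left out. Among males alone *Srebf1* (−1.19, adjusted p = 0.065) and *Thrsp* (−2.11, adjusted p = 0.054) did not pass on MCD in Cre mice. The causes were not tested.

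Changes of sign touched values that did not pass. Among males alone these were *Acaca* (+0.20) and *Me1* (+0.29) on MCD in *Flcn* KO mice, *Pnpla3* between genotypes on chow (−0.32), *Mlxipl* between genotypes on MCD (−0.40), and the interactions of *Acly* (+0.13) and *Mlxipl* (−0.029). Among females alone they were *Srebf1* between genotypes on chow (+0.00012), *Acaca* (+0.016), *Srebf1* (+0.041) and *Thrsp* (+0.64) between genotypes on MCD, and the interactions of *Acly* (+0.019), *Srebf1* (+0.040) and *Thrsp* (+0.76). With sex as a covariate *Pnpla3* was at −0.039 on chow, and by limma-voom the interactions of *Acly* and *Thrsp* were +0.037 and +0.33. With single mice left out, the difference between genotypes on chow ran from −0.70 to +0.0014 for *Elovl6*, from −0.35 to +0.029 for *Srebf1* and from −0.41 to +0.65 for *Pnpla3*, and that on MCD from −0.098 to +0.028 for *Acaca* and from −1.35 to +0.31 for *Thrsp*. The interaction ran from −0.26 to +0.22 for *Acly*, from −0.45 to +0.032 for *Srebf1* and from −0.78 to +0.97 for *Thrsp*.

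Same-numbered mice were little alike in the mean (mean correlation of their deviations −0.08, −0.01, 0.06 and 0.13 for the 4 pairs of groups). Single pairs ran from −0.14 to −0.01 between diets in Cre mice and from −0.19 to 0.21 in *Flcn* KO mice. Between genotypes they ran from −0.55 to 0.47 on chow and from 0.06 to 0.26 on MCD. With the replicate number as a block, 247 genes were lower in *Flcn* KO mice on chow, and 199 genes had an interaction above 0 and 353 below. *Acacb* passed with the block between genotypes on MCD (+1.90) and for the interaction (+1.72). The sign of *Pnpla3* on chow (−0.23), of *Acaca* between genotypes on MCD (+0.0023) and of the interactions of *Acly* (+0.14) and *Thrsp* (+0.19) changed with it, none of them past the threshold.

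Counts over all tested genes moved more. On chow 776 genes were higher in *Flcn* KO mice and 436 lower, against 374 and 121 without the 5 chow libraries, 461 and 166 among females, 282 and 53 among males, 185 lower with no filter, and 499 to 883 higher and 170 to 553 lower with single mice left out, the fewest without *Flcn* KO chow mouse 4. Among males 2584 genes were higher and 2101 lower on MCD in Cre mice (4121 and 3968 with all libraries), 1302 and 1603 in *Flcn* KO mice (3162 and 3166), and 299 and 421 between genotypes on MCD (1134 and 1199). The interaction was above 0 for 463 genes and below for 779, against 4 and 59 among males, 214 above with no filter, 470 below without the 5 chow libraries, and 272 to 577 above and 529 to 877 below with single mice left out.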
